A study of Homo sapiens with 8 samples.

Results

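The SOX genes described here are SOX4, SOX11, SOX12, SOX9, SOX2, SOX7, SOX13, SOX15 and SOX21, which are 9 of the 25162 gene symbols in the table of the study. They were taken by symbol, whatever their values, and each has 1 RefSeq transcript in the table. RNA was measured in HMLE cells, which are human mammary epithelial cells that were immortalized in culture, in 8 libraries that form 4 groups of 2. The groups are TGF-β-treated SOX4-shRNA cells, untreated SOX4-shRNA cells, TGF-β-treated scrambled-shRNA cells and untreated scrambled-shRNA cells. Cells of all groups carried a lentiviral shRNA and had been selected with puromycin at 0.5 µg/mL, and TGF-β was given for 16 h. Only 1 shRNA against SOX4 was used, in 1 cell line, so an effect of losing SOX4 and an effect of that shRNA on other transcripts cannot be told apart. Nothing in the labels says that libraries within a group are separate cultures, so the p-values measure the spread between these libraries, which may be technical.

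SOX proteins are transcription factors that bind DNA through an HMG box, a domain that fits into the minor groove and bends the double helix. They are sorted into groups by the likeness of this box. SOX4, SOX11 and SOX12 form the SoxC group, SOX2 and SOX21 belong to the SoxB groups, SOX9 to SoxE, SOX7 to SoxF, SOX13 to SoxD and SOX15 to SoxG. In mammary and other epithelial cells SOX4 is known as a gene induced by TGF-β, a cytokine that signals through receptor kinases and SMAD proteins, and as a regulator of epithelial-mesenchymal transition, in which epithelial cells lose their junctions and become motile.

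The same 60 bases of the coding sequence of the HMG box, starting at a conserved motif, show how close the genes are and why reads of one could be taken for another. They are from GRCh37 and GENCODE 44, written 5′ to 3′ along the gene, with each base that differs from SOX4 in capitals.

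SOX4, chr6:21594946-21595005, plus strand: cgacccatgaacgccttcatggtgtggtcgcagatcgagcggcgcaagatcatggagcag
SOX11, chr2:5833004-5833063, plus strand: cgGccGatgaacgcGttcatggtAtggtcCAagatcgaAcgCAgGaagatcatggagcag
SOX12, chr20:306692-306751, plus strand: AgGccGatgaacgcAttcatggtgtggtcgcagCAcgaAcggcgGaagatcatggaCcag
SOX9, chr17:70117851-70117910, plus strand: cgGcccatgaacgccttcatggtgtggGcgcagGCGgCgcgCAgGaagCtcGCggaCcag
SOX2, chr3:181430275-181430334, plus strand: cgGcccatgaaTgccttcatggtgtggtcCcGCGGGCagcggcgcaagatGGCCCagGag
SOX13, chr1:204092833-204092892, plus strand: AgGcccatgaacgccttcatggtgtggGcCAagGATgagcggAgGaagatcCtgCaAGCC
SOX15, chr17:7492785-7492844, minus strand: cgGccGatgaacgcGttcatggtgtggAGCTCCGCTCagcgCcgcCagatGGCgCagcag
SOX21, chr13:95364217-95364276, minus strand: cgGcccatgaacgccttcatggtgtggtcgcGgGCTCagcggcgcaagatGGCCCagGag

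The nearest to SOX4 in this stretch were SOX12, with 9 bases that differ, and SOX11, with 10, and the farthest was SOX15, with 19. Between whole transcripts of the 9 genes, SOX7 included, the longest exact run shared by any of the 36 pairs was 60 bases, between SOX2 and SOX21, and SOX4 shared at most 33 bases, with SOX12. The reads were 75 nt long, so no read without a mismatch could come from more than 1 of the 9 transcripts.

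Values are FPKM, in which reads are divided by the length of the transcript and the size of the library, so levels can be compared between genes. Of the 9 genes, 6 reached 1 FPKM in at least 2 libraries and could be fitted, namely SOX15, SOX9, SOX4, SOX7, SOX13 and SOX12. SOX11 and SOX21 were listed at 0 in all 8 libraries, and SOX2 had 1 read in 1 of 8. Differences were tested as log2(FPKM + 1) with limma in 1 fit of 4302 genes and 4 groups, with Benjamini-Hochberg adjustment and a threshold of 0.05. The added 1 FPKM shrinks the changes of low genes. Of the 6 fitted genes, SOX4 alone passed the test in any of the 4 comparisons.

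Library sizes were estimated at 12.6 M to 16.8 M reads, from the FPKM of 1 read, annotated transcript lengths and an assumed mean fragment of 200 nt. They are not counts of sequenced reads. The whole reads restored for the fitted genes came to 3.18 M to 4.26 M. All 9 markers of mammary epithelial cells were at 1 FPKM or more in every library, with KRT5, a basal keratin, at 2886 to 3945 FPKM. The 3 endothelial and 3 leukocyte markers stayed below 0.2 FPKM, with CDH5 and CD3E at 0 in every library. The summed level of the 3 fibroblast markers DCN, LUM and PDGFRA was 0.166 to 0.422 FPKM in the 4 SOX4-shRNA libraries and 1.04 to 1.51 FPKM in the 4 scrambled-shRNA libraries, most of it from DCN, with 1 damaged value taken at its lowest reading. All 4 SOX4-shRNA libraries thus lay below all 4 scrambled-shRNA libraries, which was so for 6.89% of 4164 fitted genes. The part of this sum in the differences below was not tested.

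SOX4, the gene targeted by the shRNA, was much lower in the SOX4-shRNA cells than in the scrambled-shRNA cells, both with and without TGF-β. Its FPKM was 2.37 and 1.88 in TGF-β-treated SOX4-shRNA cells, against 18.7 and 17.6 in TGF-β-treated scrambled-shRNA cells. Without TGF-β it was 0.923 and 1.02 FPKM in SOX4-shRNA cells, against 8.74 and 8.04 in scrambled-shRNA cells. Each of the 4 SOX4-shRNA libraries lay below each of the 4 scrambled-shRNA libraries, which was so for 6.89% of 4164 genes. The reads behind these values were 155 and 133 with TGF-β and 60 and 74 without it in SOX4-shRNA cells, against 1300 and 1128 with TGF-β and 686 and 475 without it in scrambled-shRNA cells. In bulk RNA, fewer cells that express a gene and less of its RNA per cell cannot be told apart.

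The mean level left in SOX4-shRNA cells was 11.7% of that in scrambled-shRNA cells with TGF-β and 11.6% without it. Over the 4 pairings of single libraries it ranged from 10% to 13.5% with TGF-β and from 10.6% to 12.7% without it, so the ranges overlapped. On the log2 scale the difference was -2.62 with TGF-β (95% interval -2.91 to -2.33, limma adjusted p = 3.2e-05) and -2.25 without it (-2.54 to -1.96, adjusted p = 1.0e-04). SOX4 was the only 1 of the 6 fitted SOX genes called in either comparison, where 4.61% of 4207 tested genes were called with TGF-β and 4.84% of 4239 without it. Counted from the largest fall of all tested genes, SOX4 ranked 3 with TGF-β and 6 without it.

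SOX4 rose with TGF-β in both kinds of cells, by much the same ratio. In SOX4-shRNA cells the mean was 2.12 ± 0.351 FPKM with TGF-β and 0.972 ± 0.0683 untreated, a ratio of 2.19, and in scrambled-shRNA cells it was 18.1 ± 0.803 with TGF-β and 8.39 ± 0.493 untreated, a ratio of 2.16 (SD, n = 2 each). Over the 4 pairings of single libraries the ratio was 1.84 to 2.57 in SOX4-shRNA and 2.01 to 2.32 in scrambled-shRNA cells. Both treated libraries lay above both untreated libraries in each kind of cell, as did those of 20.4% of tested genes in SOX4-shRNA and 28.9% in scrambled-shRNA cells. The log2 difference was 0.66 ± 0.12 (SE) in SOX4-shRNA cells (limma adjusted p = 0.020, 7.86% of 4212 tested genes called) and 1.03 ± 0.12 in scrambled-shRNA cells (adjusted p = 0.005, 7.06% of 4205 called). With 0.1 FPKM added in place of 1, the difference in SOX4-shRNA cells was 1.05, and with a fit to the whole reads (limma voom) it was 1.08. SOX4 was again the only called SOX gene of the 6. It ranked 43 from the largest rise in scrambled-shRNA cells and 218 in SOX4-shRNA cells.

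Whether the response to TGF-β differed between the kinds of cells was tested by the interaction, the response in SOX4-shRNA cells minus that in scrambled-shRNA cells, which was -0.37 ± 0.17 (SE) for SOX4 on the log2 scale of FPKM + 1 (limma adjusted p = 0.995). With 0.1 FPKM added in place of 1 it was -0.06, and with voom it was 0.03. None of the 6 fitted SOX genes passed this test, in which 0.12% of 4165 genes were called. At an unadjusted p under 0.05, 3.27% of all tested genes and none of the 6 SOX genes passed.

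The call of SOX4 for TGF-β rested on few libraries. In SOX4-shRNA cells it was lost without either library of that group untreated (adjusted p = 0.066 for each), without the first treated one (0.073), and without either TGF-β-treated scrambled-shRNA library, which only share the estimate of the spread (0.058 for each). In scrambled-shRNA cells it was lost without either treated library, at an adjusted p of 0.066 without the first and 0.060 without the second. The direction was the same each time, at 0.54 to 0.77 in SOX4-shRNA cells and 0.97 to 1.08 in scrambled-shRNA cells.

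Part of the deposited values had lost the decimal mark, and these levels were read through the whole numbers of reads behind them. For SOX4, 1 value of 8 had a single reading and the other 7 had several, and at the readings given all 8 were whole reads. Among the alternatives are both TGF-β-treated scrambled-shRNA libraries 10 times lower, at 1.87 and 1.76 FPKM, where the second would hold 112.8 reads, which is not whole. In another, both TGF-β-treated SOX4-shRNA libraries would be 10 times higher, where their reads would still be whole, so that whole reads alone do not settle which reading holds. It would give a log2 difference of 0.21 for the knockdown with TGF-β and 3.49 for TGF-β in SOX4-shRNA cells. The readings given carried 0.989 of the posterior probability. That value rests on assumed spreads between groups and libraries. It also rests on an assumed penalty for a reading whose lower alternative is whole too, so it does not come from the reads alone.

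**Figure D1:**
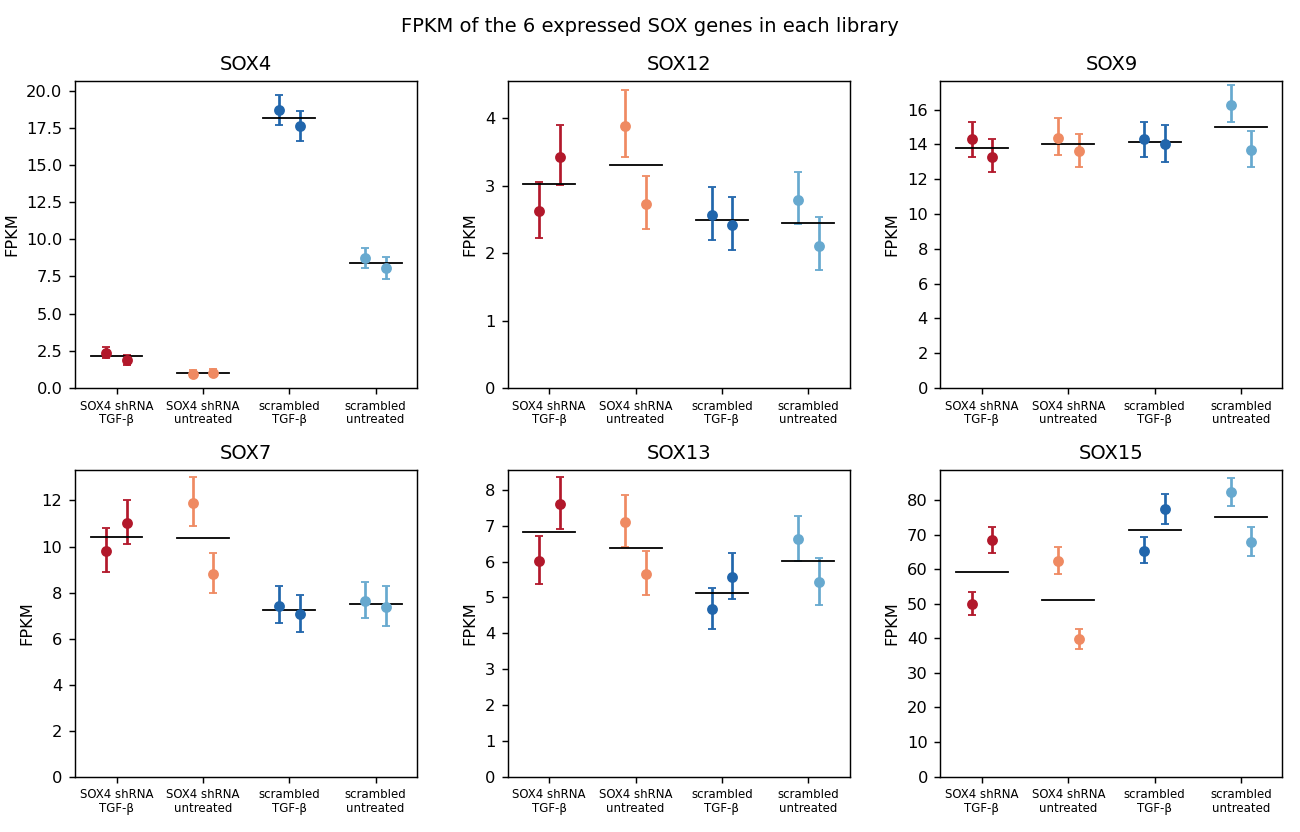
FPKM (linear axes from 0, which differ between panels) of the 6 fitted SOX genes in each library, as points with 95% Poisson intervals that cover counting error only, with the mean of each group as a line. SOX4 was at 0.923 to 2.37 FPKM in the 4 SOX4-shRNA libraries and at 8.04 to 18.7 FPKM in the 4 scrambled-shRNA libraries, while SOX9 lay at 13.3 to 16.3 FPKM in all 8.

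SOX4 has 1 exon and lies at chr6:21593982-21598850 on the plus strand of GRCh37. Its exon is overlapped on the opposite strand by ENSG00000283480, and since the sources used here do not say whether counting used the strand, reads of that RNA could be counted in SOX4. SOX12, also with 1 exon, lies at chr20:306196-310868 on the plus strand and has no exon overlap with another gene. The 250 bases before the start of each gene are shown because 1 gene of this SoxC pair rose with TGF-β in the test and the other did not pass it. They are RefSeq sequence of GRCh38.p14, written along the gene, with matches to CCAAT or its reverse complement ATTGG and to CAGAC, a half-site bound by SMAD proteins, in capitals.

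SOX4, chr6:21593501-21593750, plus strand: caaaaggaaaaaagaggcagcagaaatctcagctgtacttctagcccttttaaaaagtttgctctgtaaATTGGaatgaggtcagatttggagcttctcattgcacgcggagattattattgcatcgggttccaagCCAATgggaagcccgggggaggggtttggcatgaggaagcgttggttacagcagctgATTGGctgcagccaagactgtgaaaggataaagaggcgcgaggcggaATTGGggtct
SOX12, chr20:325302-325551, plus strand: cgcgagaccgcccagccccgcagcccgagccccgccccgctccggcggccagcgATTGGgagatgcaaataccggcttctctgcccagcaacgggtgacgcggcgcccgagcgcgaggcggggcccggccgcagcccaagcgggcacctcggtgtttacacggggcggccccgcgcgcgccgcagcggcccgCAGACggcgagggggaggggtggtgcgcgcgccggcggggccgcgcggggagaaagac

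The SOX4 window held 4 matches to CCAAT on either strand, which begin 181, 114, 57 and 10 bases before the start, and none to CAGAC. The SOX12 window held 1 match to CCAAT, at 196 bases, and 1 to CAGAC, at 58 bases. Of 35116 windows of this length in the RefSeq table, 32.0% held CCAAT at least once, 0.87% held it at least 4 times and 38.0% held CAGAC. Neither window held ACAAAG or ACAATG, the cores of SOX sites, which were present in 13.7% and 9.3% of all windows. GC content was 48.8% for SOX4 and 79.2% for SOX12. These matches describe letters and are not shown to be bound, and the count of 4 was looked up after it was seen.

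SOX12 is the other SoxC gene with a measurable level, and SOX11, which is best known from neurons and their precursors, was not detected. SOX12 was at 2.62 and 3.43 FPKM in TGF-β-treated SOX4-shRNA cells, against 2.57 and 2.42 FPKM in TGF-β-treated scrambled-shRNA cells. Untreated SOX4-shRNA cells held 3.89 and 2.73 FPKM, against 2.79 and 2.11 in untreated scrambled-shRNA cells. The groups overlapped without TGF-β and lay next to each other, without overlap, with it, as did those of 24.3% of tested genes, and the log2 differences of 0.20 (95% interval -0.22 to 0.61) and 0.31 without TGF-β (-0.10 to 0.73) did not pass the limma test (adjusted p = 0.66 and 0.39). TGF-β gave -0.09 (-0.51 to 0.32) in SOX4-shRNA cells and 0.02 (-0.39 to 0.44) in scrambled-shRNA cells, which did not pass either. For SOX11, the floor of 3 reads is 0.0203 to 0.027 FPKM per library, and the 95% Poisson interval of a count of 0 reaches up to 0.025 to 0.0332 FPKM. SOX11 has 1 exon, at chr2:5832516-5841517 on the plus strand.

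SOX4 made up most of the SoxC FPKM in scrambled-shRNA cells and less than 50% of it in SOX4-shRNA cells. Its share was 47.5% and 35.3% in TGF-β-treated SOX4-shRNA cells, against 87.9% in both TGF-β-treated scrambled-shRNA libraries. Without TGF-β the share was 19.2% and 27.2% in SOX4-shRNA cells, against 75.8% and 79.2% in scrambled-shRNA cells. No group overlapped another. Each of the 4 comparisons gave an exact two-sided permutation p of 0.333, the smallest that 2 libraries against 2 allow. The summed SoxC FPKM was 5.15 ± 0.226 in TGF-β-treated and 4.28 ± 0.751 in untreated SOX4-shRNA cells, and 20.6 ± 0.907 in TGF-β-treated and 10.8 ± 0.973 in untreated scrambled-shRNA cells (SD, n = 2 each).

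**Figure D2:**
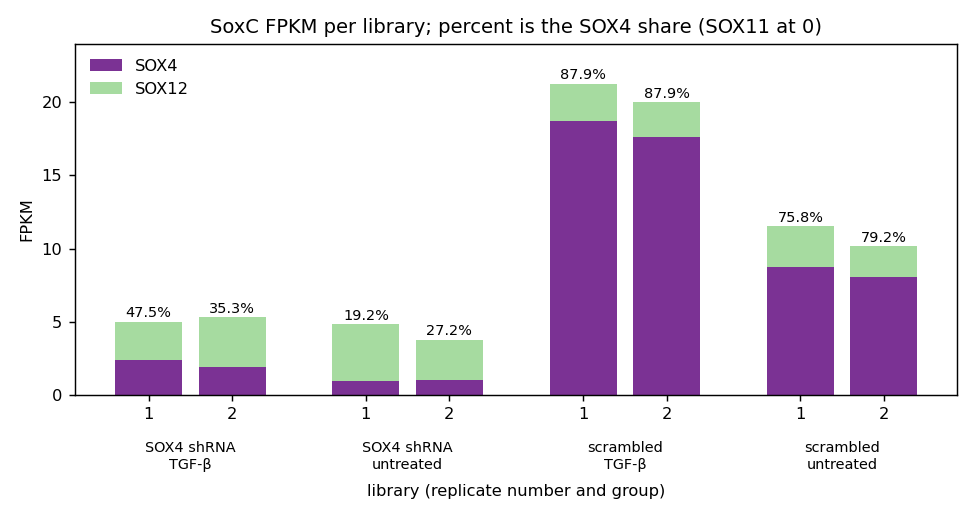
Stacked bars of SOX4 and SOX12 FPKM in each library, with the SOX4 share of the SoxC sum above each bar. The shares are 19.2% to 47.5% in the 4 SOX4-shRNA libraries and 75.8% to 87.9% in the 4 scrambled-shRNA libraries, while the SOX12 part is 2.11 to 3.89 FPKM in all 8.

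SOX9, a SoxE factor known from cartilage and from progenitor cells of several epithelia, was the most even of the fitted SOX genes. It was at 14.3 and 13.3 FPKM in TGF-β-treated SOX4-shRNA cells and 14.4 and 13.6 FPKM in untreated SOX4-shRNA cells. TGF-β-treated scrambled-shRNA cells held 14.3 and 14.0 FPKM and untreated ones 16.3 and 13.7 FPKM. The groups overlapped in every comparison. The 4 log2 differences ran from -0.09 to -0.02 (adjusted p = 0.74 to 0.93), and their 95% intervals from -0.37 at the lowest to 0.26 at the highest, so changes within these bounds could not be seen. SOX9 lies at chr17:70117161-70122557 on the plus strand and has 3 exons, none of which overlaps another gene. All 10 SOX9 target genes of cartilage on the list used, which covers collagens and other matrix proteins, were below 1 FPKM in every library, so none was tested.

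SOX2, known for its part in pluripotency and neural precursors, had 0.0291 FPKM in the first TGF-β-treated scrambled-shRNA library, which is 1 read, and 0 in the other 7. SOX21, a related SoxB factor, was at 0 in all 8. Both have 1 exon, SOX2 at chr3:181429713-181432224 on the plus strand and SOX21 at chr13:95361876-95364799 on the minus strand. The floor of 3 reads is 0.0773 to 0.103 FPKM for SOX2 and 0.0656 to 0.0873 FPKM for SOX21. Any difference between groups in these genes was not detectable at this depth.

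SOX7, a SoxF factor known from endothelial cells, was higher in the SOX4-shRNA libraries than in the scrambled-shRNA libraries. Its FPKM was 9.79 and 11.0 in TGF-β-treated SOX4-shRNA cells, against 7.43 and 7.05 in TGF-β-treated scrambled-shRNA cells. Without TGF-β it was 11.9 and 8.82 in SOX4-shRNA cells, against 7.65 and 7.36 in scrambled-shRNA cells. Each of the 4 SOX4-shRNA libraries lay above each of the 4 scrambled-shRNA libraries, which was so for 5.36% of 4164 genes, and the mean ratio was 1.44 with TGF-β and 1.38 without it. Within each treatment, libraries apart in this direction were common, at 24.3% of tested genes with TGF-β and 23.4% without it. Neither comparison passed the test, with log2 differences of 0.47 ± 0.15 (SE, limma adjusted p = 0.15) and 0.40 ± 0.15 (adjusted p = 0.19).

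Averaged over both treatments, a contrast added after these values were seen, the SOX7 difference was 0.44 ± 0.11 (SE, limma adjusted p = 0.035), in a comparison that called 12.3% of 4171 genes, 5.23% as rises. This call was lost without 7 of the 8 libraries in turn, at adjusted p-values of 0.052 to 0.15, and it was kept only without the second untreated SOX4-shRNA library (0.013). It was also lost with the replicate number as a block (0.070), with no filter on low values (0.072) and with all kept genes (0.086). The direction was the same throughout, at 0.34 to 0.53. The endothelial markers PECAM1, CDH5 and VWF summed to 0.0502 to 0.1 FPKM in SOX4-shRNA libraries and 0.0511 to 0.175 FPKM in scrambled-shRNA libraries, with CDH5 at 0. SOX7 (chr8:10581278-10588021, minus strand, GRCh37, 2 exons) overlaps an exon of PINX1 on the same strand, so reads could be divided between these genes. TGF-β moved SOX7 by 0.02 (95% interval -0.33 to 0.36) in SOX4-shRNA cells and -0.05 (-0.39 to 0.30) in scrambled-shRNA cells, and neither passed the test.

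**Figure D3:**
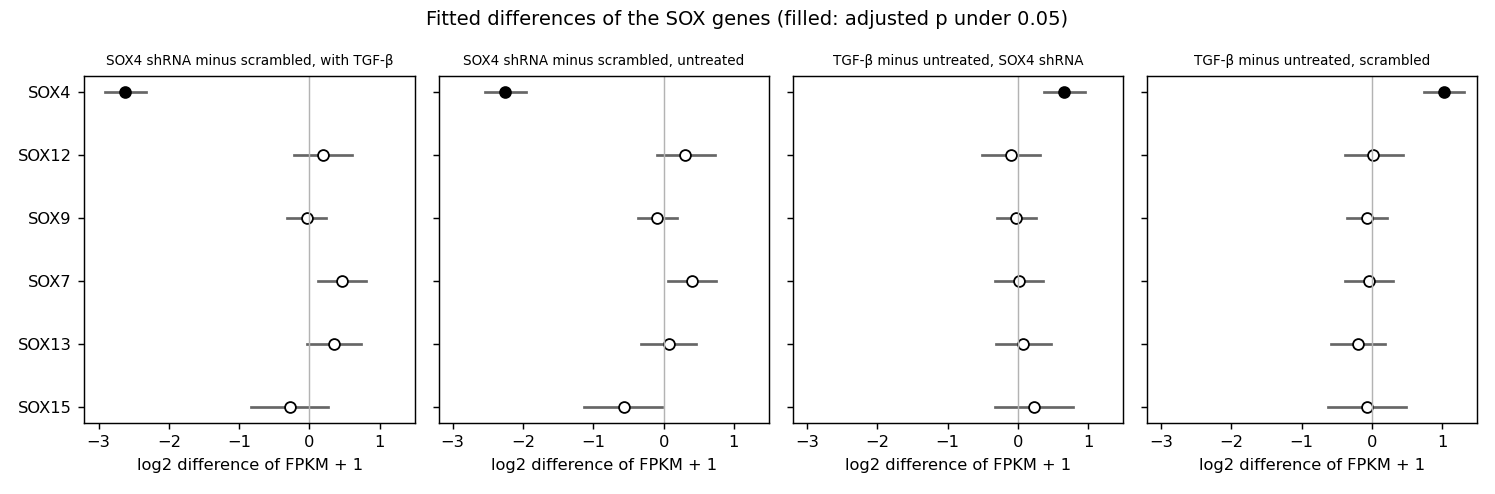
Log2 differences of FPKM + 1 with 95% intervals for the 6 fitted SOX genes in the 4 comparisons, filled where the limma adjusted p was under 0.05. SOX4 is the only filled gene in each panel, and SOX7 lies at 0.47 and 0.40 in the knockdown comparisons with and without TGF-β, its intervals to the right of 0. The interval of SOX15 in the knockdown comparison without TGF-β, -1.13 to -0.02, lies to the left of 0.

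SOX13, a SoxD factor, was at 6.01 and 7.61 FPKM in TGF-β-treated SOX4-shRNA cells, against 4.67 and 5.57 FPKM in TGF-β-treated scrambled-shRNA cells, where the groups did not overlap, as in 24.3% of tested genes. Untreated SOX4-shRNA cells held 7.10 and 5.66 FPKM, against 6.62 and 5.42 in untreated scrambled-shRNA cells, where they did. The log2 differences of 0.35 ± 0.17 with TGF-β (SE, limma adjusted p = 0.35) and 0.07 ± 0.17 without it (0.86) did not pass the test. TGF-β gave 0.08 (95% interval -0.31 to 0.47) in SOX4-shRNA and -0.20 (-0.58 to 0.19) in scrambled-shRNA cells, and neither passed. SOX13 lies at chr1:204042243-204096871 on the plus strand and has 14 exons.

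SOX15, the only SoxG factor in humans, had the highest level of the SOX genes in every library, above 92.9% of the fitted genes on average. Its FPKM was 50.0 and 68.4 in TGF-β-treated SOX4-shRNA cells, against 65.4 and 77.3 in TGF-β-treated scrambled-shRNA cells, where the groups overlapped. Untreated SOX4-shRNA cells held 62.4 and 39.8 FPKM, against 82.2 and 67.9 in untreated scrambled-shRNA cells, and here both SOX4-shRNA libraries lay below both scrambled-shRNA ones, as in 23.2% of tested genes. Neither difference passed the test, at -0.28 ± 0.24 with TGF-β (SE, limma adjusted p = 0.65) and -0.57 ± 0.24 without it (0.25). The 95% interval without TGF-β was -1.13 to -0.02. TGF-β gave 0.23 (95% interval -0.33 to 0.78) in SOX4-shRNA and -0.07 (-0.62 to 0.48) in scrambled-shRNA cells, which did not pass either. The wide SE goes with the replicates, which differed by up to 44.3% of their mean. SOX15 lies at chr17:7491496-7493412 on the minus strand, has 2 exons and is overlapped by an exon of MPDU1 on the opposite strand, so its level could include reads of that gene. All 8 values of SOX15 and of SOX9 had lost the decimal mark. At 10 times lower readings none of the 8 would be whole reads for SOX15, and 1 of 8 for SOX9.

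The order of levels was the same in both kinds of cells except for SOX4. In both SOX4-shRNA groups it was SOX15, SOX9, SOX7, SOX13, SOX12 and then SOX4. In TGF-β-treated scrambled-shRNA cells SOX4 came just after SOX15, above SOX9, and in untreated scrambled-shRNA cells it came between SOX9 and SOX7. No neighbours in these orders had overlapping libraries within a group, and SOX4 and SOX7 in untreated scrambled-shRNA cells were close, at 8.04 to 8.74 and 7.36 to 7.65 FPKM.

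Within the SOX4-shRNA groups, replicate libraries differed in the same direction for several SOX genes. SOX7, SOX12, SOX13 and SOX15 were all higher in the first library than in the second of untreated SOX4-shRNA cells, and all lower in the first than in the second of TGF-β-treated SOX4-shRNA cells. SOX9 was higher in the first library of both of these groups. In TGF-β-treated scrambled-shRNA cells the genes were divided, with SOX7, SOX9 and SOX12 higher in the first library and SOX13 and SOX15 in the second, and in untreated scrambled-shRNA cells all 5 were higher in the first. Of all fitted genes, 49.8% to 52.2% were higher in the first library, depending on the group. Across all fitted genes, the differences between replicates of these 2 groups had a Pearson r of -0.60, a description over genes that are not independent. The origin of this difference between replicate libraries was not tested.

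Of 10 other SOX genes, 5 were listed at 0 in all libraries, 3 reached 0.1 FPKM in some library and none reached 1 FPKM, so these genes were not in the limma fit. SOX6, a SoxD factor that lacks an activation domain, was lower in TGF-β-treated libraries. Its summed level over 4 transcripts was 0.314 and 0.25 FPKM in TGF-β-treated SOX4-shRNA cells against 0.702 and 0.707 in untreated ones, and 0.178 and 0.26 FPKM in TGF-β-treated scrambled-shRNA cells against 0.447 and 0.463 in untreated ones. The TGF-β-treated and untreated libraries did not overlap in either kind of cell, and the ratio of means was 0.4 in SOX4-shRNA cells and 0.482 in scrambled-shRNA cells. Lower libraries without overlap were common, at 24.5% of the genes tested with limma in SOX4-shRNA cells and 34.9% in scrambled-shRNA cells. The exact two-sided permutation p was 0.333 in each, the smallest possible.

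SOX17, a SoxF factor of endoderm and endothelium, was at 0 in all 4 SOX4-shRNA libraries. It was at 0.0626 and 0.102 FPKM in TGF-β-treated scrambled-shRNA cells, which is 2 and 3 reads, and at 0.0555 and 0.0369 FPKM in untreated scrambled-shRNA cells, which is 2 reads and 1 read. These counts are at or below the floor of 3 reads, so no fold is given. Of 4164 fitted genes, 6.89% had all 4 SOX4-shRNA libraries below all 4 scrambled-shRNA libraries. SOX30, known from the testis, had the opposite order over 2 transcripts, with 0.117 and 0.151 FPKM in TGF-β-treated and 0.0705 and 0.0841 FPKM in untreated SOX4-shRNA cells. In scrambled-shRNA cells it was at 0 and 0.0238 FPKM with TGF-β and 0.0195 and 0.0259 FPKM untreated. The 4 SOX4-shRNA libraries thus lay above the other 4, as in 5.36% of the genes compared in this way above. The genes behind both shares reach at least 1 FPKM in at least 2 libraries, unlike SOX17 and SOX30. Reads were not derived for SOX30, since it has 2 transcripts, and its level is low. For SOX7, with a canonical transcript of 3215 nt against 3283 nt for SOX30, 1 read was 0.0194 to 0.0257 FPKM in untreated scrambled-shRNA libraries. The SOX30 values in scrambled-shRNA cells are thus near the level of 1 read or at 0. For SOX17 and for SOX30, the 4 SOX4-shRNA against the 4 scrambled-shRNA libraries gave an exact two-sided permutation p of 0.029, the smallest that 4 against 4 allows. This comparison was chosen after the values were seen, so the p lends them no support.

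**Figure D4:**
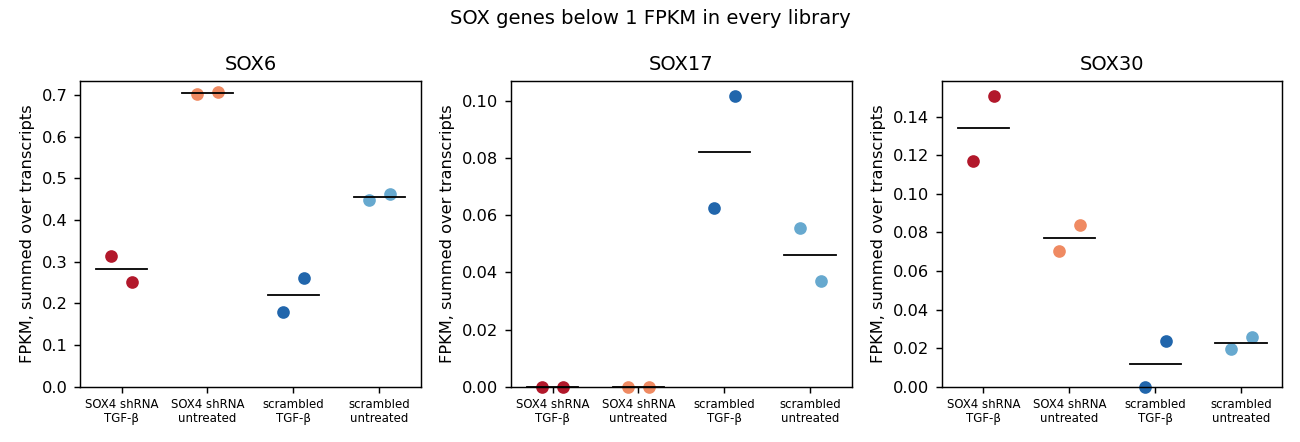
FPKM of SOX6, SOX17 and SOX30 summed over transcripts in each library (points) with the mean of each group (lines), on linear axes from 0 that differ between panels. SOX6 is at 0.178 to 0.314 FPKM in the 4 TGF-β-treated libraries and at 0.447 to 0.707 FPKM in the 4 untreated ones, and SOX17 is at 0 in the 4 SOX4-shRNA libraries.

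Of 16 genes reported elsewhere as targets of SOX4 or its SoxC relatives, 5 could be fitted, 9 having several transcripts. Among these 5, the knockdown with TGF-β gave 1 rise and no fall, and without TGF-β no rise and 1 fall, where 4.61% and 4.84% of all tested genes were called, with medians of -0.02 and 0.16 against 0.016 and -0.009 for all tested genes. The rise with TGF-β was that of TNC, which encodes the matrix protein tenascin-C, at 69.6 ± 4.83 FPKM in SOX4-shRNA cells and 39.0 ± 1.63 FPKM in scrambled-shRNA cells (SD, n = 2 each, log2 difference 0.82, limma adjusted p = 0.012). The fall without TGF-β was that of DKK1, a secreted inhibitor of WNT signalling, at 43.7 ± 1.57 FPKM in SOX4-shRNA cells and 71.2 ± 1.60 FPKM in scrambled-shRNA cells (-0.69, adjusted p = 0.011). This DKK1 call was lost with the compared groups alone (limma adjusted p = 0.061). The call for TNC was lost without either scrambled-shRNA library of the pair of groups or the second SOX4-shRNA one, at 0.061 to 0.13, and so was that for DKK1, at 0.056 to 0.10.

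TGF-β gave 1 rise and 1 fall among these 5 genes in each kind of cell, where 7.86% of all tested genes were called in SOX4-shRNA and 7.06% in scrambled-shRNA cells, with medians of -0.24 in SOX4-shRNA and -0.34 in scrambled-shRNA cells, against -0.041 and -0.035 for all tested genes. TNC rose by 1.41 in SOX4-shRNA cells (limma adjusted p = 8.6e-04) and by 1.01 in scrambled-shRNA cells (adjusted p = 0.005). The falls were those of FZD5, a WNT receptor, in SOX4-shRNA cells (-0.66, adjusted p = 0.022) and of DKK1 in scrambled-shRNA cells (-0.53, adjusted p = 0.025). Apart from TNC in SOX4-shRNA cells, each of these calls was lost without some library. For TNC in scrambled-shRNA cells these were the first untreated library and either treated one (0.051 to 0.073), for DKK1 any library of the compared groups (0.14 to 0.21), and for FZD5 both untreated SOX4-shRNA libraries, the second treated one and either TGF-β-treated scrambled-shRNA one (0.062 to 0.11). DKK1 was also lost there with the replicate block (0.069) and with all kept genes (0.057), and FZD5 with no filter, with all kept genes and with the compared groups alone (0.069 to 0.12). Exons of TNC and DKK1 overlap those of another gene on the other strand.

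SOX4 is reached by TGF-β through receptors and SMADs. Of 10 genes of this pathway on the list, 2 could be fitted, SMAD4 and SKI, which is neither a receptor nor a SMAD. No receptor was fitted, and neither of the 2 genes passed the test in any comparison. Of 11 other factors with an HMG box, 4 were fitted and 1 was called, in the knockdown with TGF-β, where 4.61% of all tested genes were called. TCF7L1, which represses WNT targets, was at 26.3 ± 3.72 FPKM in TGF-β-treated SOX4-shRNA cells and 11.1 ± 1.01 FPKM in TGF-β-treated scrambled-shRNA cells (SD, n = 2 each, log2 difference 1.17, limma adjusted p = 0.014). This call was lost with all kept genes (adjusted p = 0.074). The median of the 4 was 0.14 there, against 0.016 for all tested genes, and the call was lost without either scrambled-shRNA library or the second SOX4-shRNA library of these groups (0.075 to 0.14).

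Among the genes whose pattern over the 8 libraries was most like that of SOX4 were FBN1, KIAA1549L, ABI3BP and CCDC69, of 4163 compared, with Pearson r of 0.991 to 0.992 on log2(FPKM + 1). FBN1 encodes fibrillin-1 of matrix microfibrils and ABI3BP another matrix protein. FBN1 was at 1.53 ± 0.119 FPKM in TGF-β-treated and 1.01 ± 0.0657 FPKM in untreated SOX4-shRNA cells, and at 7.26 ± 0.106 FPKM in TGF-β-treated and 4.22 ± 0.538 FPKM in untreated scrambled-shRNA cells (SD, n = 2 each). The most opposite patterns were those of ALDH1B1, a mitochondrial aldehyde dehydrogenase, CXCL2, a chemokine, and GRHL2, a transcription factor of epithelia, with r of -0.987, -0.986 and -0.982. ALDH1B1 was at 33.5 ± 0.538 FPKM in TGF-β-treated and 37.7 ± 0.184 FPKM in untreated SOX4-shRNA cells, against 22.0 ± 0.0416 FPKM in TGF-β-treated and 27.8 ± 0.914 FPKM in untreated scrambled-shRNA cells. Exons of KIAA1549L and GRHL2 overlap another gene on the opposite strand. These correlations are a description, since the 8 points share 4 groups and the order is fixed largely by the knockdown. The other fitted SOX genes had r of 0.64 (SOX15), 0.29 (SOX9), -0.64 (SOX13), -0.65 (SOX12) and -0.87 (SOX7).

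**Figure D5:**
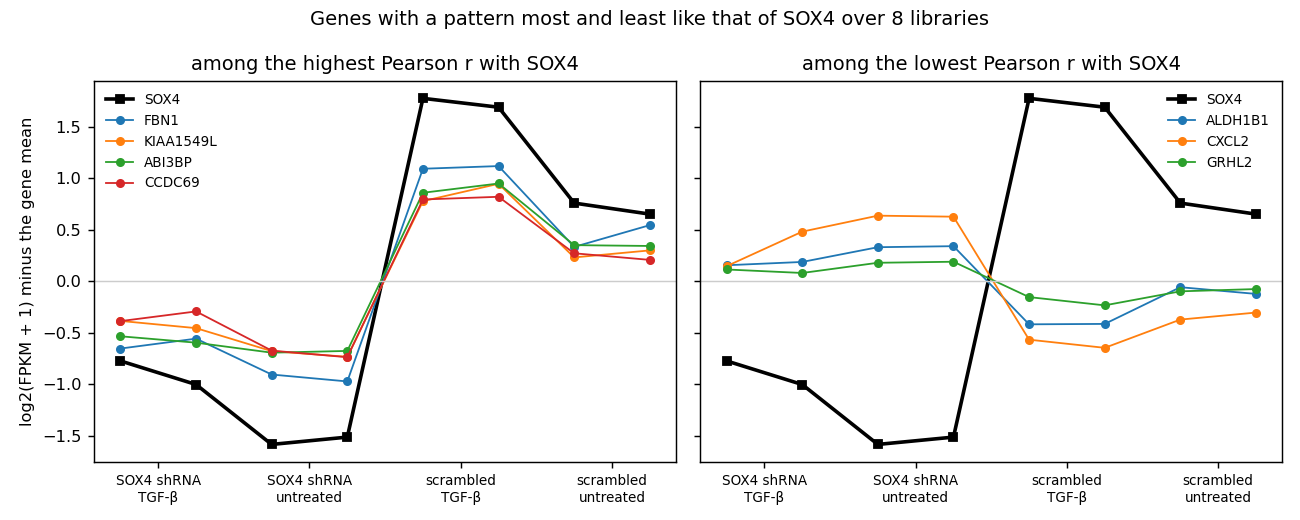
Log2(FPKM + 1) of each gene minus its own mean over the 8 libraries, for SOX4 (black squares) with 4 genes of the highest Pearson r on the left and the 3 of lowest r on the right. The 4 genes on the left are below 0 in the 4 SOX4-shRNA libraries and above 0 in the 4 scrambled-shRNA libraries, and the 3 on the right are the reverse.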

How the data were processed

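The members and gene lists were chosen with earlier results of these data known. Per the labels' protocols, a strand-specific kit that depletes ribosomal RNA was used and single reads of 75 nt were made, although polyA RNA is named elsewhere in the labels, which leaves the RNA fraction unsure. The build hg19 and the tools Cuffdiff, Cufflinks 2.2.1 and TopHat2 2.0.9 are named, per the submitters' processing notes. Strand setting and scaling between libraries: not given in the sources used here. The deposited values of 48175 transcripts in 8 columns were read as FPKM, going by these tools and the range of the values.

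In 34.1% of cells the decimal mark had been lost, and 13.9% in damaged exponent notation were set to 0. Lost marks were restored for genes with 1 transcript by requiring whole numbers of reads, within 0.003 reads plus rounding, in at least 6 of 8 cells. Of 5422 genes searched, 4302 (79.3%) met this and were fitted, and a comparison was tested where at least 0.95 of the posterior lay on readings no more than 0.2 log10 apart. Restoration and fit were tested on simulated data. There 3885 of 4302 genes were restored, and 95.45% of their cells were read at the right power of 10. Of the comparisons tested there, 0.08% to 0.21% were off by a power of 10. With the last 2 digits of each cell replaced at random, 99 of 4302 genes still met the whole-read rule. Changes were put into the untreated SOX4-shRNA libraries, for genes above 1 FPKM in all 8 libraries, which SOX4 was not. The simulation held no effect of TGF-β and 1 fixed spread. Among the genes fitted, 84.4% of changes of 1 log2 unit and 76.2% of those of 2 were called in the right direction, and 5 unchanged genes were called.

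The test was limma 3.58.1 (R 4.3.3) on log2(FPKM + 1) of all 8 libraries, with Benjamini-Hochberg adjustment over all genes tested. Intervals and floors cover counting error only. Named were the 9 members, other SOX genes that reach 0.1 FPKM, 8 genes by likeness to SOX4, of which 1 is not reported here, and the called genes of the lists, at most 4 a list and comparison. Alternatives were another pseudocount, filters, scaling, variance prior, sets of samples and genes, voom, blocks and leaving out each library. Symbols were matched for 47093 of 48175 transcripts (97.75%).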

Additional observations from a re-analysis of the deposited data

How the results depend on the processing

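The knockdown of SOX4 kept its direction and its call in every alternative that could fit it, with log2 differences of -3.07 to -2.50 with TGF-β and -3.10 to -2.20 without it, apart from held readings of the lost decimal mark. Placed at the 10 times lower reading, the TGF-β-treated scrambled-shRNA libraries would give 0.15 for the knockdown with TGF-β and -1.74 for TGF-β in scrambled-shRNA cells, and SOX4 shares that differ by -0.679 and -35.4 percentage points. Placed at the 10 times higher reading, the TGF-β-treated SOX4-shRNA libraries would give 0.21 for the knockdown and 3.49 for TGF-β in SOX4-shRNA cells, and share differences of -0.621 (knockdown) and 64.1 (TGF-β). These settings were chosen after seeing the data. As a share of all 9 genes, SOX4 differed by -13.1 and -6.19 percentage points for the knockdown with and without TGF-β, and by 1.11 and 7.99 for TGF-β in SOX4-shRNA and scrambled-shRNA cells.

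The rise of SOX4 with TGF-β in SOX4-shRNA cells was 0.66 but not called with no filter on low values (adjusted p = 0.058), with only the compared groups (0.12) and with all kept genes (0.073), so that 0 of the 6 SOX genes were called there. The filter of 1 FPKM in all 8 libraries removed SOX4 and left 0 called in each of the 4 comparisons. Leaving out a library left 0 to 1 SOX genes called for TGF-β in either kind of cell, with SOX4 at 0.54 to 0.77 in SOX4-shRNA and 0.97 to 1.08 in scrambled-shRNA cells, and 1 throughout for the knockdown. No interaction was called among the SOX genes in any of these settings.

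Samples with the same replicate number did not deviate together in all pairs of groups. The correlation of their deviations was 0.43 between the untreated groups and 0.29 between the TGF-β-treated groups. Between an untreated and a TGF-β-treated group it was -0.60 to -0.08. Whether such samples share more than a number was not tested. With the replicate block, 102 and 123 genes were called for the knockdown with and without TGF-β, against 194 and 205, and 173 and 146 for TGF-β in SOX4-shRNA and scrambled-shRNA cells, against 331 and 297. The block left SOX4 called in all 4 comparisons. A crossed block, with replicate numbers exchanged in the TGF-β-treated groups, was added after seeing the data. It called 471, 584, 920 and 962 genes in the same order, 3, 2, 1 and 1 of them SOX genes. Besides SOX4, these were SOX7 (0.47, limma adjusted p = 0.045) and SOX13 (0.35, 0.046) for the knockdown with TGF-β. For the knockdown without TGF-β it was SOX15 (-0.57, 0.015).

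Other counts of called genes that moved by over 1.5 times were 81 and 88 for the knockdown and 173 and 98 for TGF-β with all kept genes. With the compared groups alone they were 81 (knockdown, untreated), 89 (TGF-β, SOX4-shRNA) and 709 (TGF-β, scrambled-shRNA). With no filter they were 132 (knockdown, untreated) and 213 (TGF-β, SOX4-shRNA), and with 1 FPKM in all 8 libraries 117 and 112 for the knockdown and 2 for the interaction, against 5. Leaving out a library gave 33 to 214 and 38 to 207 for the knockdown, and 127 to 225 and 26 to 322 for TGF-β. The average knockdown called 511 genes, against 331 with 1 FPKM in all 8 libraries, 314 with the block, 1076 with the crossed block and 218 to 412 without a library. The voom fit called 203 and 219 genes for the knockdown. Of the 8 genes taken by likeness to SOX4, 4 were also taken with 0.1 FPKM added, 1 with group means and 0 with Spearman's rho. The causes were not tested. Depth limits SOX2, SOX11, SOX17 and SOX21, which had at most 3 reads in a library. It also limits SOX30, for which reads were not derived and which was at 0.151 FPKM or less.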
